A study of Drosophila melanogaster with 16 samples.

Results

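Lowering upon lamin Dm0 knock-down (Lam-KD) was followed for 15 genes of Drosophila S2 cells. They were chosen from the RNA-seq tables by their own values. A gene was taken where both control libraries held at least 5 CPM (counts scaled to a library sum of 1000000) and where the larger Lam-KD value was at most 0.77 times the smaller control value. Of 15050 rows with a FlyBase gene identifier, 6705 reached that level in both controls and are called expressed here, and 15 of them met the ratio limit. Identifiers FBgn0001942 and FBgn0002525 were left out beforehand. All 4 libraries entered the choice, so the low Lam-KD values of these genes are a description of what was chosen and were not tested.

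S2 is an established macrophage-like line of late embryonic origin, and every culture in the RNA-seq experiment was a culture of this line. Long double-stranded RNA was added to all cultures. In Lam-KD cells it matched lamin Dm0, and in control cells it matched bacterial lacZ, which has no counterpart in the fly. The sample records give 5 days of treatment, and the methods give a shorter time. Poly(A)+ RNA was sequenced from 2 biological replicates of each condition. The 2 Lam-KD libraries sum to 16121164 and 16415699 estimated counts, and the 2 control libraries to 16607051 and 14727743. H3 pan-acetylation ChIP-seq and Hi-C of the same series could not be tied to these genes, because their bins lie on the dm3 genome and no gene positions on dm3 were at hand.

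Lamins are intermediate filament proteins that form a meshwork under the inner nuclear membrane, the nuclear lamina. Lamin Dm0 is the ubiquitous B-type lamin of the fly. Silent and weakly expressed genes tend to lie in the chromatin that touches the lamina, whereas actively expressed genes mostly lie away from it. S2 cells take up such RNA from the medium, which makes RNA interference routine in this line.

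The identifiers of these genes could not be turned into names. Only 137 of the 15050 identifiers were paired with a symbol in RefSeq's gene table (assembly Release 6 plus ISO1 MT), 51 of them among the expressed genes and 0 among the 15. For the same reason 0 of the 481 symbols on 9 lists of pathways and complexes, and 0 of 22 markers of hemocytes, germline, neurons and muscle, could be found in the tables. Neither the function of the lowered genes nor the identity of the cells was therefore examined, and the targeted gene was not looked up. FBgn0002525, left out by the rule, had 717 and 1456 CPM in the libraries labelled Lam-KD and 651 and 553 in those labelled control, so that it was higher in both Lam-KD libraries. No source used here names this row. If it is the targeted gene, its level goes against the labels, and reads from the added double-stranded RNA were not told apart from those of the cells. The knock-down was thus not checked in these libraries, and every Lam-KD value given here rests on the labels. At the protein level, the paper gives a Western blot and immunostaining of lamin Dm0 in Lam-KD and control S2 cells, and it describes lamin Dm0 as depleted. Neither is a measure of the RNA-seq libraries. FBgn0001942, the other row left out, met the ratio limit, with 1399 and 1427 CPM in Lam-KD cells against 2330 and 2087 in control cells.

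The number of lowered genes was small. The 15 genes are 0.224% of the 6705 expressed genes, whereas 1242 expressed genes (18.5%) had both Lam-KD values below both control values, and 1838 (27.4%) had both above. With the direction turned round, so that the larger control value had to be at most 0.77 times the smaller Lam-KD value, 38 of 6780 genes (0.56%) met the limit. This balance of 15 lower to 38 higher genes shifts with the scaling, to 20 lower and 33 higher with TMM factors or DESeq2 size factors and to 26 lower and 28 higher with the upper quartile. The number of lowered genes was 82 without control replicate 1, 50 without control replicate 2, 49 without Lam-KD replicate 1 and 43 without Lam-KD replicate 2. Fewer pairs then had to meet the limit, so the number could only rise and all 15 had to stay.

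The same count was then taken after a control and a Lam-KD library had changed places. With control replicate 1 and Lam-KD replicate 2 swapped, 14 genes met the rule (0.208%), and with control replicate 2 and Lam-KD replicate 1 swapped, 13 did. These groupings keep libraries of the same replicate number together. With control replicate 1 and Lam-KD replicate 1 swapped the count was 6, and with control replicate 2 and Lam-KD replicate 2 swapped it was 4 (0.0595%). The 4 swaps are only 2 divisions of the libraries, each read in both directions. One division gave 14 and 13 genes and the other 6 and 4. Lam-KD below control gave 15 genes and the opposite direction 38. In CPM of the file sums, the true grouping in the lowered direction gave 1 gene more than the highest of the 4 swapped counts. This margin depends on the scaling. Counts of the true grouping under other scalings were planned, and the swapped counts under them were added after the data had been seen. The true grouping gave 20 genes with TMM factors, against 4 to 13 after a swap. It gave 20 with DESeq2 size factors, against 4 to 14 after a swap, and 26 with the upper quartile, against 4 to 14 after a swap. Relative to file sums, each of these scalings raises the values of both control libraries and lowers those of both Lam-KD libraries. The count of the true grouping could therefore only rise under them. A swapped group holds libraries of both conditions, and no p-value was attached to these numbers.

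**Figure D1:**
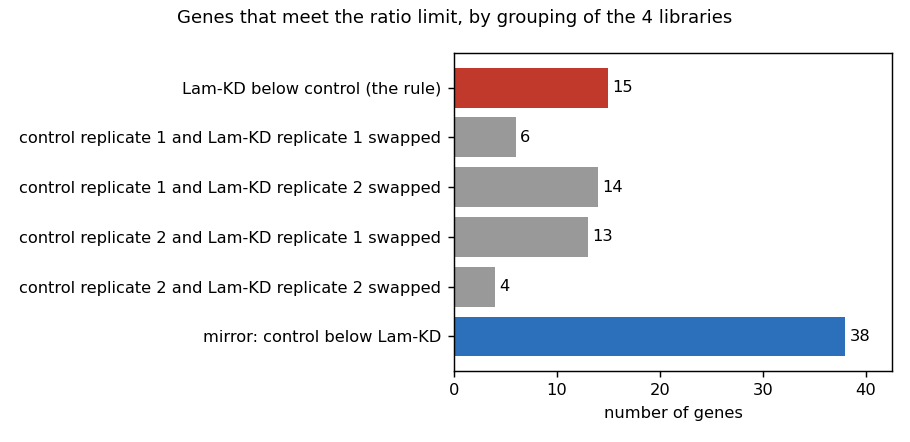
Number of genes (horizontal axis) that meet the ratio limit of 0.77, for the true grouping (15 genes, red), for each exchange of a control and a Lam-KD library (6, 14, 13 and 4 genes, grey) and for the true grouping in the opposite direction (38 genes, blue). The grey bars are 2 divisions of the libraries, each in both directions (6 and 4 genes, 14 and 13 genes). All bars are in CPM of the file sums, where the red bar lies 1 gene above the highest grey bar. With TMM factors the true grouping lies at 20 genes against at most 13.

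Libraries of the same condition differed by as much in many genes. Between Lam-KD replicates 1 and 2, 155 of the 6705 expressed genes (2.31%) differed by at least the limit in either direction, and between control replicates 1 and 2, 658 genes (9.81%) did. Across conditions the number was 294 and 477 against control replicate 1 and 723 and 701 against control replicate 2. Pairs that include control replicate 2 thus differed in the most genes, and the control replicates lay further apart than the Lam-KD replicates. The mean chi-square per gene was 7.01 between the Lam-KD and 24.3 between the control libraries. It holds the spread between separate cultures, and for estimated counts such as these the value that counting noise alone would give is unknown. Each table was counted as a separate sample.

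FBgn0028581 had the lowest ratio of all. It held 24.7 and 15.8 CPM in Lam-KD cells, against 60.9 and 44.9 in control cells (mean 20.2 ± 6.30 against 52.9 ± 11.3, SD, n = 2 each). The larger Lam-KD value was 0.549 times the smaller control value, with a 95% counting interval of 0.484 to 0.623. This interval covers counting error between these 2 libraries only and leaves out the spread between replicates. The Lam-KD replicates of FBgn0028581, which differed by a factor of 0.639, were the least alike among the 15 genes. Its control replicates differed by a factor of 0.738. Both of these within-condition factors lie below the limit that separated the conditions, and over the 4 pairs across conditions its ratio ran from 0.259 to 0.549.

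FBgn0031454 came next, with 13.2 and 14.2 CPM in Lam-KD cells and 25.2 and 28.0 in control cells. Its replicates were close, and its 4 pair ratios lay between 0.471 and 0.563. The row with the next identifier, FBgn0031455, showed the opposite pattern, with 198 and 210 counts in Lam-KD cells and 0 in both control libraries. On the scale of CPM it held 12.3 and 12.8 in Lam-KD cells. Added together, both rows held 25.5 and 27.0 CPM in Lam-KD cells and 25.2 and 28.0 in control cells (26.2 ± 1.05 against 26.6 ± 1.99, SD, n = 2 each). The sum overlapped between the conditions, and its larger Lam-KD value was 1.07 times its smaller control value. The 2 rows were put side by side after their values had been seen. Whether the genes overlap on dm3 was not looked up, and how the quantification divided reads between them was not tested. Of all 15 genes, 14 have a row with the identifier one higher or one lower, and FBgn0031454 is the one for which such a row reached 10 CPM in both Lam-KD libraries and was at 0 in both control libraries.

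FBgn0001226 and FBgn0001223 were the most abundant. FBgn0001226 held 237 and 227 CPM in Lam-KD cells against 308 and 415 in control cells, and FBgn0001223 held 145 and 143 against 191 and 239. The Lam-KD replicates agreed closely in both genes, whereas control replicate 2 stood above control replicate 1. In FBgn0001226 the control replicates differed by a factor of 0.741, which is beyond the limit of 0.77 itself. Against control replicate 1 alone both genes therefore lay near the limit, with final ratios of 0.769 and 0.762.

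The identifiers between these, FBgn0001224 and FBgn0001225, lay just outside the limit, so that 4 consecutive identifiers had ratios between 0.762 and 0.784. FBgn0001225 held 583 and 579 CPM in Lam-KD cells against 756 and 789 in control cells, a ratio of 0.771. FBgn0001224 held 202 and 210 against 268 and 270, a ratio of 0.784. In these 4 rows no Lam-KD value reached a control value. With TMM factors, DESeq2 size factors or the upper quartile in place of the file sums, FBgn0001224 and FBgn0001225 also met the limit, and the whole run was then among the lowered genes. The rows on either side were unlike them. FBgn0001222 held 147 and 144 CPM in Lam-KD cells against 148 and 136 in control cells, and FBgn0001227 held at most 1.40. This run of identifiers was picked out after its values had been seen.

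FBgn0065099 and FBgn0065098 are another pair of consecutive identifiers, and here both met the limit. FBgn0065099 had 7.44 and 6.64 CPM in Lam-KD cells and 10.7 and 10.6 in control cells. FBgn0065098 had 4.47 and 4.02 in Lam-KD cells and 6.74 and 5.98 in control cells. On average the Lam-KD level was 0.661 of control in the first gene and 0.667 in the second. The rows of the identifiers around them, FBgn0065097 and FBgn0065100, held at most 4 counts in any library. Whether the 2 genes share reads, as near-identical copies can, was not tested.

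**Figure D2:**
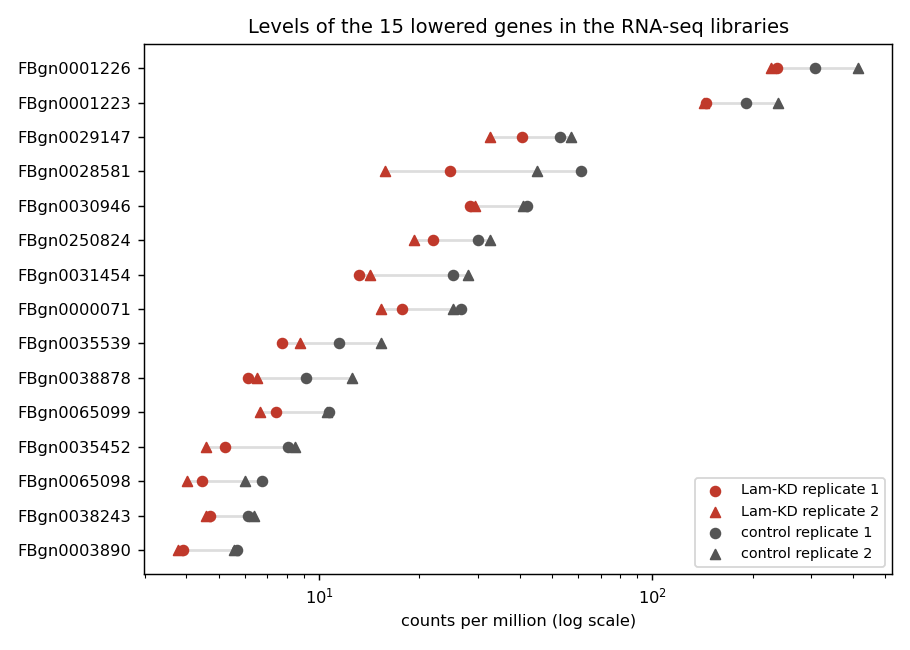
CPM (horizontal axis, log scale) of each of the 15 lowered genes in the 2 Lam-KD libraries (red) and the 2 control libraries (grey), ordered by mean control level; circles are replicate 1 and triangles replicate 2. The red points lie left of the grey points in every row, as the choice of the genes requires, and the grey points lie furthest apart in FBgn0038878, FBgn0028581, FBgn0001226 and FBgn0035539.

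FBgn0030946 had replicates that lay close together in both conditions. It held 28.5 and 29.3 CPM in Lam-KD cells against 42.1 and 40.9 in control cells (28.9 ± 0.586 against 41.5 ± 0.811, SD, n = 2 each), and its pair ratios stayed between 0.676 and 0.716. FBgn0250824 held 22.0 and 19.2 in Lam-KD cells against 29.9 and 32.5 in control cells. FBgn0000071 held 17.7 and 15.3 in Lam-KD cells against 26.7 and 25.2 in control cells. In both genes the replicates of a condition lay close to each other next to the gap between the conditions. FBgn0029147 held 40.7 and 32.7 CPM in Lam-KD cells against 52.9 and 57.2 in control cells. It lies near the limit through Lam-KD replicate 1, with a highest pair ratio of 0.769 and a lowest of 0.571.

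FBgn0038878 and FBgn0035539 had control replicates that lay apart. FBgn0038878 had 6.14 and 6.52 CPM in Lam-KD cells against 9.15 and 12.6 in control cells, and FBgn0035539 had 7.75 and 8.77 against 11.5 and 15.3. The control replicates differed by factors of 0.729 and 0.749. With FBgn0028581 and FBgn0001226, they are the 4 of the 15 genes whose control replicates differed by at least the limit of the rule, and in 3 of these control replicate 2 was the higher one.

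The remaining 3 genes were among the least expressed. FBgn0035452 had 5.21 and 4.57 CPM in Lam-KD cells against 8.07 and 8.49 in control cells. FBgn0003890 had 3.91 and 3.78 in Lam-KD cells against 5.66 and 5.57 in control cells. FBgn0038243 had 4.71 and 4.57 in Lam-KD cells against 6.14 and 6.38 in control cells. The replicates agreed closely in these genes, but they rest on 62 to 134 counts. For FBgn0038243 the 95% counting interval of the ratio reached 1.04, and for FBgn0065098 it reached 1.03. In the other 13 genes it stayed below 1. These intervals cover counting error between 2 libraries only, and they may be too narrow because the sums of the tables exceed the number of reads the methods state.

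**Figure D3:**
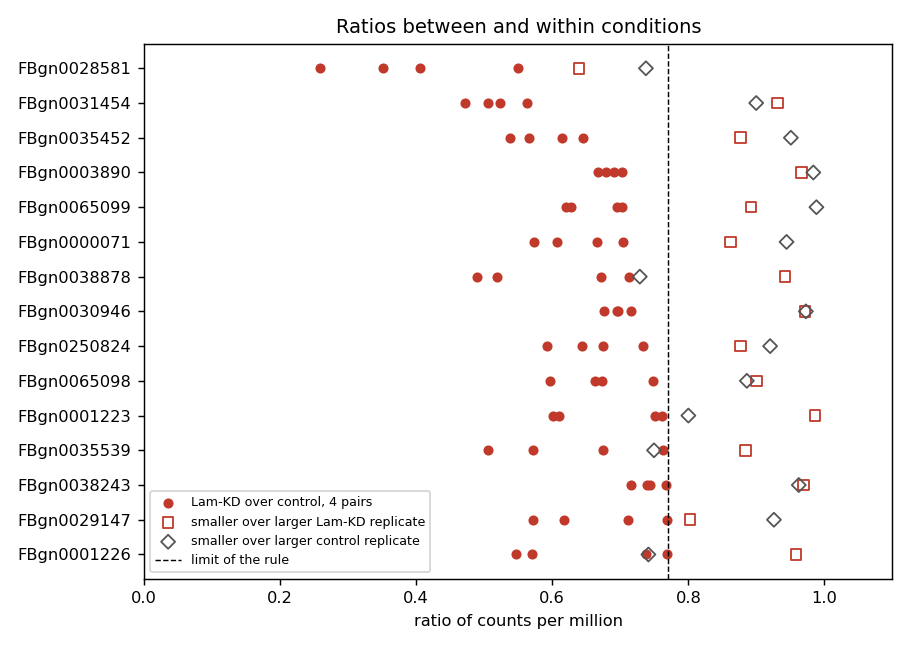
Ratios of CPM (horizontal axis) for each of the 15 genes: Lam-KD over control for the 4 combinations of replicates (filled red circles), the smaller over the larger Lam-KD replicate (open red squares) and the smaller over the larger control replicate (open grey diamonds), with the limit of 0.77 as a dashed line. In FBgn0028581 both open symbols lie left of the line, and in FBgn0038878, FBgn0035539 and FBgn0001226 the grey diamond does.

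Among the 15 genes the ratio of the larger Lam-KD to the smaller control value had a median of 0.716, and over all expressed genes 1.11. It was at most 0.6 in 2 genes and at least 0.7 in 12, of which 5 lay above 0.76. The 3 closest to the limit on the inside were FBgn0001226, FBgn0029147 and FBgn0038243, with ratios of 0.769, 0.769 and 0.768. The 3 closest on the outside were FBgn0001225, FBgn0033751 and FBgn0001224, with 0.771, 0.774 and 0.784. FBgn0033751 held 79.7 and 83.4 CPM in Lam-KD cells against 118 and 108 in control cells. All 3 of the genes outside met the limit under the other scalings (TMM factors, DESeq2 size factors and the upper quartile). The limit thus divides genes of nearly equal ratio. Relative to the mean of the control libraries, the mean Lam-KD level of the 15 genes ranged from 0.382 to 0.741 with a median of 0.660, and over all expressed genes the median was 1.02.

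Most of the lowered genes had control levels below the median of the expressed genes. Their mean control level ranged from 5.61 to 362 CPM with a median of 25.9, against a median of 58.4 over all expressed genes, and 13 of the 15 lay below that overall median. Of the 15, 4 lay between 5 and 10 CPM (26.7%, against 6.40% of the expressed genes) and 2 lay at 100 or above (13.3%, against 32.9%). Of the 13, FBgn0028581 and FBgn0029147 lay near the median, at 52.9 and 55.1 CPM. The rule used these levels, so their distribution was not tested. Counting error is relatively larger at low counts, so a fixed ratio limit can itself favour such genes. Levels of the genes that met the limit after a swap were not compared. Together the 15 genes made up 569 and 536 CPM in the Lam-KD libraries and 795 and 948 in the control libraries. Fewer cells that express a gene and less of its RNA per cell cannot be told apart in such bulk samples.

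**Figure D4:**
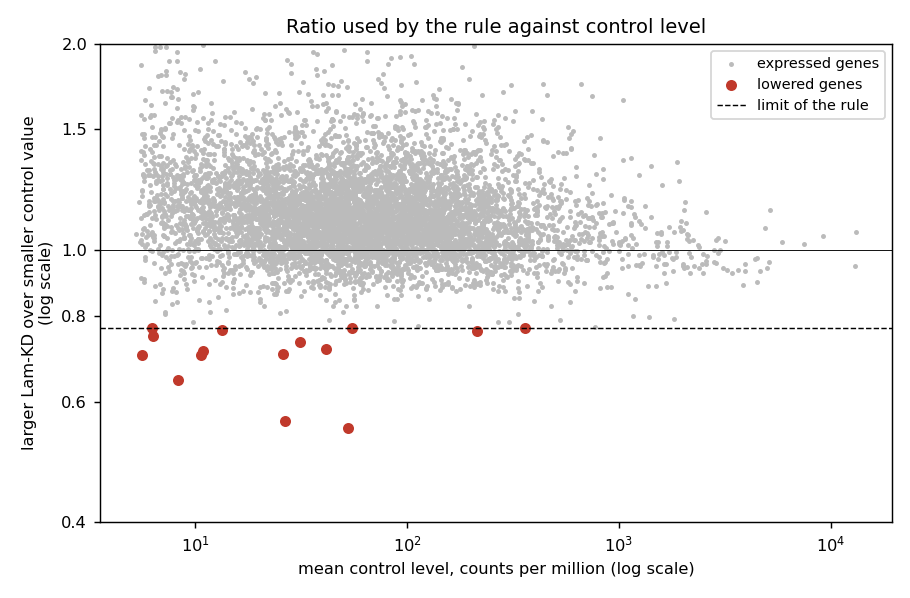
Ratio of the larger Lam-KD to the smaller control value (vertical axis, log scale from 0.4 to 2) against the mean control level in CPM (horizontal axis, log scale) for the expressed genes (grey) and the 15 lowered genes (red); 35 genes above the plotted range are not drawn. All red points lie under the dashed limit of 0.77, 2 of them under 0.6, and 13 of them lie left of 58.4 CPM, the median of the expressed genes.

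The identifiers themselves were spread over the numbering of FlyBase. In the range that begins with FBgn003 lay 6 of the 15 genes (40.0%) and 52.0% of the expressed genes, and in the range that begins with FBgn000 lay 4 (26.7%) and 9.43%. The range that begins with FBgn002 held 2 of the genes (13.3%) and 14.8% of the expressed genes. The range that begins with FBgn006 held 2 (13.3%) and 0.686%, and the range that begins with FBgn025 held 1 (6.67%) and 1.77%. Among the 15, FBgn0065098 and FBgn0065099 are the directly consecutive pair, and under the other scalings the run from FBgn0001223 to FBgn0001226 joins them. The 99 rows of the tables with a transcript or assembly identifier were not part of the choice, and 0 of the 8 such rows at 5 or more CPM in both controls would have met it.

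As background, both conditions were compared over the whole table with the quasi-likelihood test of edgeR after TMM scaling. Its expression filter left 8283 genes, all 15 among them. With Benjamini-Hochberg adjustment and a threshold of 0.05, edgeR called 0 genes lower (0.0%) and 3 higher. At an unadjusted p under 0.05 in the same test, 793 of the 8283 genes differed, 374 of them lower. Some unchanged genes also pass an unadjusted limit. DESeq2 on the same genes called 19 lower (0.229%), and 6 of the 15 are among them: FBgn0028581, FBgn0031454, FBgn0030946, FBgn0001223, FBgn0029147 and FBgn0001226. Since the genes were chosen on this very contrast, that overlap carries no evidence of its own. Where a library is left out, its condition keeps a single library, which is assumed to vary like those of the other condition. Leaving out control replicate 1 moved the number that edgeR called lower to 233, leaving out control replicate 2 to 27, leaving out Lam-KD replicate 1 to 6 and leaving out Lam-KD replicate 2 to 2.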

How the data were processed

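Poly(A)+ RNA-seq of 2 Lam-KD and 2 control cultures was used. Per the labels and the methods, the authors mapped reads to dm3 with HISAT2 2.1.0, filtered on mapping quality with SAMtools and ran StringTie. The deposited tables hold an estimated count for each gene, written as a whole number and not scaled to depth. Each value was divided by the sum of its table and given per 1000000 counts (CPM). The limits were 5 CPM in both controls and a ratio of 0.77. The genes, lists and comparisons were chosen with earlier results of these data known. The genes to be named were the 10 with the lowest ratio, the 10 with the highest control level and the 3 on either side of the limit, which together take in all 15. Counting intervals of ratios are exact binomial 95% intervals. Whole-table tests used edgeR 4.0.16 and DESeq2 1.42.0 in R 4.3.3, tested on simulated data, on FBgn rows alone, and other rows hold at most 0.0329% of a library. Computation used Python 3.11.15, numpy 2.4.6, scipy 1.17.1, pandas 2.3.3 and matplotlib 3.10.9. The planned comparison with H3 pan-acetylation was not run, and ChIP-seq and Hi-C tables were not used.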

Additional observations from a re-analysis of the deposited data

How the results depend on the processing

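The number of lowered genes, 15 in CPM of the file sum, was 20 with TMM factors or with DESeq2 size factors and 26 with the upper quartile. Relative to file sums, each of these scalings raises the values of both control libraries and lowers those of both Lam-KD libraries. All 15 therefore had to be kept, and genes could only be added. FBgn0001224, FBgn0001225, FBgn0033751, FBgn0039208 and FBgn0041607 were added under each of them. The median log2 difference of all expressed genes, Lam-KD minus control, was 0.026 with file sums, -0.0026 with TMM factors, -0.0068 with DESeq2 size factors and -0.032 with the upper quartile. A minimum of 1 CPM gave 55 genes and a minimum of 10 gave 10. A ratio limit of 0.67 gave 3 genes and one of 0.85 gave 61. Leaving out 1 library, which leaves fewer pairs to satisfy, gave 43 to 82 genes, the highest number without control replicate 1. In 10 of the 15 the 95% Poisson intervals of Lam-KD and control did not overlap in any pair. The genes were chosen on these same values, so this is a description and no support for the lowering. The intervals cover counting error only and leave out the spread between cultures. They may also be too narrow, because the library sums of estimated counts exceed the number of reads the methods state. With FBgn0031454 summed with FBgn0031455, an alternative added after the data had been seen, 14 genes remained, and the log2 ratio of FBgn0031454 became -0.022.

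The number of genes that edgeR called changed, 3 with 0 lower, was 42 with 19 lower in DESeq2 and 0 with the filter of the methods, and ranged from 14 to 774 without 1 library, with 2 to 233 lower. It was 3, with 0 lower, with no filter on low counts and with DESeq2 size factors. The setting named after the methods took only their filter and kept the quasi-likelihood test. The paper reports genes called in both directions with edgeR and TMM scaling, and its methods do not name the edgeR test. Its procedure was thus not repeated. With a replicate block, edgeR called 53 genes, 22 of them lower. The deviations of same-numbered libraries from their condition means had a correlation of 0.19 across expressed genes, but the samples share only a number and were not treated as pairs. The cause of these shifts was not tested. Depth limits the genes under 10 CPM, which rest on at most 134 estimated counts, and the number of reads behind these may be lower.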
